A study of Mus musculus with 12 samples.

Results

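The CC chemokine ligands Ccl2, Ccl3, Ccl4, Ccl5, Ccl6, Ccl7, Ccl8, Ccl9, Ccl11 and Ccl24 were followed in dystrophic quadriceps muscle under 3 drug regimens. A gene was taken when the array's annotation paired a transcript cluster, the array's unit for the probes of a gene, with its symbol and no other. All 10 ligands had exactly such a cluster, among 30412 tested clusters that carry 30084 symbols. All mice were males aged 6 weeks with a C57BL/10 background and the genotype utrn+/-;mdx, that is, dystrophin was disrupted by the mdx mutation and utrophin by a mutation of a single allele. The untreated group of 3 mice ate normal chow. A group of 3 received spironolactone at 100 mg/kg per day plus lisinopril at 20 mg/kg per day in medicated pellets, and a group of 3 received eplerenone at 200 mg/kg per day plus lisinopril at 20 mg/kg per day by the same route. The last 3 mice drank prednisolone at 1.5 mg/kg per day in their water. Each treatment ran from 4 to 6 weeks of age. Spironolactone and eplerenone block the mineralocorticoid receptor, lisinopril inhibits angiotensin-converting enzyme, and prednisolone is a glucocorticoid. All groups share the dystrophic genotype and no group received drug-free pellets, so each difference below lies within dystrophic muscle, and drug and route of delivery cannot be told apart.

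CC chemokines are small secreted proteins, named for a pair of adjacent cysteines, that draw leukocytes along a gradient by binding G protein-coupled receptors on their surface. In dystrophic muscle, fibres break down and regenerate repeatedly, and monocytes, macrophages, neutrophils, eosinophils and T cells enter the tissue. Ccl2 and Ccl7 attract monocytes above all, and Ccl8 lies in the same gene cluster. Ccl3, Ccl4 and Ccl5 attract monocytes and T cells. Ccl6 and Ccl9 are rodent ligands made by myeloid cells, and Ccl11 and Ccl24 are eotaxins, which attract eosinophils.

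The genes lie in few places. In the RefSeq gene order of assembly GRCm38.p6, Ccl2, Ccl7, Ccl11 and Ccl8 are near neighbours on chromosome 11, Ccl5, Ccl9, Ccl6, Ccl3 and Ccl4 form a second cluster on the same chromosome, and Ccl24 lies beside Ccl26 on chromosome 5. RefSeq promoter windows of 300 bases around the transcription start site were matched by symbol for 4 of the 10 genes. The windows of Ccl8 and Ccl9 are shown because these were the ligands that passed the test below, and that of Ccl6 because its levels followed those of Ccl9 most closely. Capitals mark matches to the motifs listed after them, 5′ to 3′ on the gene's own strand, at chr11:82114935-82115234 (plus strand, Ccl8), chr11:83578587-83578886 (minus strand, Ccl9) and chr11:83593038-83593337 (minus strand, Ccl6).
Ccl8: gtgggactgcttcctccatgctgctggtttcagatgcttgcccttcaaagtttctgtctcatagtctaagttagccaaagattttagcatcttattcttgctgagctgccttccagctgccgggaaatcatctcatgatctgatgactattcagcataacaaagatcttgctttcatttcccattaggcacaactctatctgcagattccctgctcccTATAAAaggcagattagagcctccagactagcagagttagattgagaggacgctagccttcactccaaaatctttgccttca
Ccl9: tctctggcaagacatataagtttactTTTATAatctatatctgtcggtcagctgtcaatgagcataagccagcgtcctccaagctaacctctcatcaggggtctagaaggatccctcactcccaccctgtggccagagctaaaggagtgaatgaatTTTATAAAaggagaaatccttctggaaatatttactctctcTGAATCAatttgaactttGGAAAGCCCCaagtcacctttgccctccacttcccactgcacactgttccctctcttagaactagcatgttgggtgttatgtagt
Ccl6: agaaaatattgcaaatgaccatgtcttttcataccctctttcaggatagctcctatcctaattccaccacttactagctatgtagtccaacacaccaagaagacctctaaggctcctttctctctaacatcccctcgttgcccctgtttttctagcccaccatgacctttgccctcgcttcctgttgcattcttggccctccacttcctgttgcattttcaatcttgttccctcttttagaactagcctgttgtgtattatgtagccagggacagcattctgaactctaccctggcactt
The Ccl8 window holds a TATA box (TATAAA) at -32 to -27 from the start site. The Ccl9 window holds TATAAA at -92 to -87, overlapped by a match on the other strand at -94 to -89, with a further match on that strand at -224 to -219. It also holds an AP-1 motif (TGANTCA) at -53 to -47 and, on the other strand, an NF-kB motif (GGG and TTTCC with 2 bases between) at -35 to -26. The Ccl6 window held no match. Both strands were searched, also for C/EBP (TTGCNNAA), the STAT element (TTCNNNGAA), the interferon-stimulated response element (GAAA repeated with 2 bases between) and the full palindromic glucocorticoid receptor element (AGAACA and TGTTCT with 3 bases between), none of which occurred in the matched windows. Of 32851 promoter windows of the same length, 13.6% hold the TATA box, 7.81% the AP-1, 1.63% the NF-kB, 10.8% the C/EBP, 8.3% the STAT, 3.44% the interferon and 0.00913% the glucocorticoid motif.

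Levels are the log2 signals that the authors deposited, so a difference of 1 is a fold of 2 on that scale, and levels are compared between groups within a gene, never between genes. Each of the 12 mice had its own array, and arrays correlated with each other at 0.985 to 0.994 over all 65587 clusters. The mean over 10 skeletal muscle markers, which include Acta1 and Ckm, was 17.68 to 18.13 in the 12 arrays, near the top of the scale, as the tissue label states. A difference was called when limma's moderated test gave an adjusted p under 0.05 after Benjamini-Hochberg adjustment over all 30412 clusters. With 3 arrays per group, their number limits the precision. In whole muscle, fewer cells of a type and less RNA per cell cannot be told apart.

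Ccl8 and Ccl9 were the ligands that passed the test, and both fell with prednisolone. Of all tested clusters, 3.17% were lower with prednisolone under the same rule, and 2 of the 10 ligands were. Ccl8, which lies in the gene cluster of Ccl2, measured 11.50, 11.53 and 11.57 in the untreated arrays. The prednisolone arrays gave 9.10, 9.44 and 10.31. The 3 untreated mice were nearly identical, and every prednisolone mouse lay more than a log2 unit below all of them. Ccl8 fell by 1.92 ± 0.35 (SE, n = 3 and 3; 3.77-fold lower; limma, adjusted p = 0.0126).

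Ccl9, a Ccr1 ligand of myeloid cells, had wider untreated values of 12.84, 14.39 and 14.07, against 12.06, 11.55 and 12.38 with prednisolone. Here too the groups did not overlap, but untreated array 1 stood only a little above the highest prednisolone mouse. The gene fell by 1.77 ± 0.41 (SE, n = 3 and 3; 3.42-fold lower; limma, adjusted p = 0.0288). Both calls depended on single mice: without prednisolone array 1 the adjusted p was 0.0538 for Ccl8 and 0.0839 for Ccl9, and without prednisolone array 2 it was 0.0612 and 0.120. Ccl9 also missed the threshold without untreated array 2 (adjusted p = 0.102) or untreated array 3 (0.0993) and in a fit of these 2 groups only (0.0802), whereas Ccl8 stayed under it without any one untreated array, at 0.0206, 0.0396 and 0.0438.

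**Figure D1:**
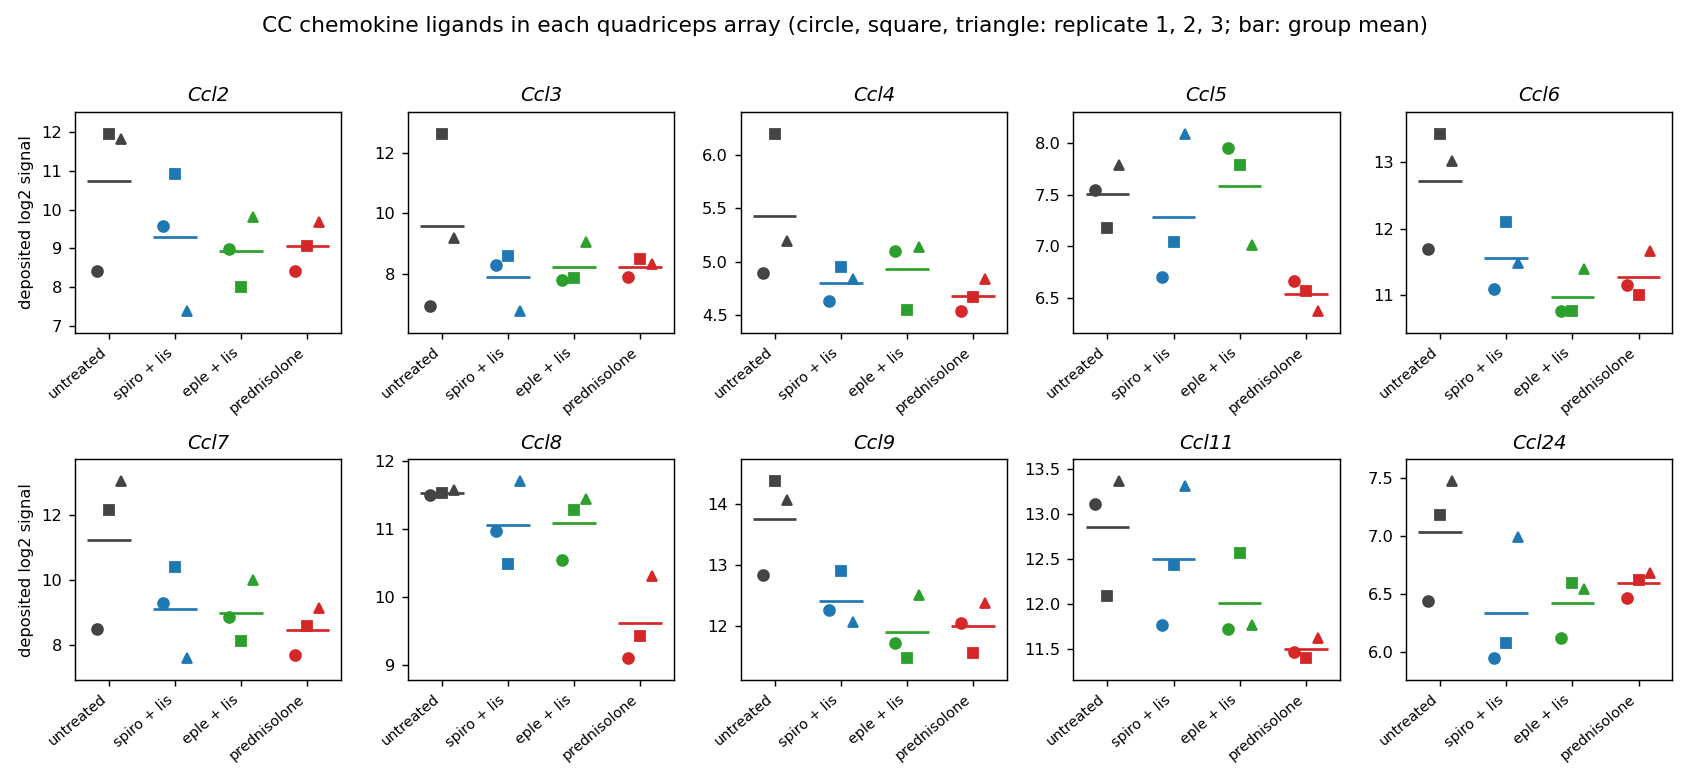
Deposited log2 signal (vertical axis, a scale of its own in each panel) of the 10 CC ligands in each of the 12 quadriceps arrays, by group on the horizontal axis; symbols give the replicate and bars the mean of 3. Ccl8 sits at 11.50 to 11.57 in the untreated mice and at 9.10 to 10.31 with prednisolone, while the untreated values of Ccl3 run from 6.96 to 12.62.

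Ccl11 and Ccl5 were also lowest with prednisolone in every array, but the differences missed the threshold. Ccl11, an eotaxin bound by Ccr3, gave 13.11, 12.09 and 13.38 in the untreated arrays and 11.47, 11.39 and 11.62 with prednisolone. The prednisolone mice lay close together and below all untreated mice, by 1.36 ± 0.40 on average (SE, n = 3 and 3; limma, adjusted p = 0.0730). For Ccl5, a ligand that T cells make and follow, the untreated arrays read 7.55, 7.18 and 7.79 and the prednisolone arrays 6.67, 6.57 and 6.37. These groups were again separate, with a log2 difference of -0.97 ± 0.34 (SE, n = 3 and 3; limma, adjusted p = 0.118). Untreated array 2 was the lowest untreated value of both genes. Without spironolactone-combination array 3, the highest array of Ccl5 and the second highest of Ccl11, 4 ligands passed in this comparison, Ccl8 and Ccl9 with Ccl5 and Ccl11.

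The monocyte ligands Ccl2 and Ccl7 had low prednisolone means beside an untreated group that split widely, and neither passed. Ccl2 read 8.41, 11.97 and 11.83 in untreated arrays 1, 2 and 3. With prednisolone it read 8.41, 9.07 and 9.68. Untreated arrays 2 and 3 stood above every treated mouse, while untreated array 1 lay at the lower end of the prednisolone range. The log2 difference was -1.68 ± 1.02 (SE, n = 3 and 3; limma, adjusted p = 0.379). Ccl7 read 8.50, 12.16 and 13.07 in the same untreated arrays and 7.69, 8.57 and 9.15 with prednisolone. Its split was the same, with untreated array 1 inside the prednisolone range, and its mean difference of -2.77 ± 1.07 (SE, n = 3 and 3; limma, adjusted p = 0.158) was larger than that of either gene that passed. Without untreated array 1 that difference was -4.14 and passed (adjusted p = 0.0124).

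Ccl3 varied most within a group. This ligand of Ccr1, made by activated macrophages and neutrophils, measured 6.96, 12.62 and 9.20 in the untreated arrays, a span of 5.66 log2 units. The prednisolone arrays gave 7.91, 8.52 and 8.33. Untreated array 1 was lower than all 3 of them, array 2 far higher and array 3 a little higher, and the difference of -1.34 ± 1.09 (SE, n = 3 and 3; limma, adjusted p = 0.536) was close to its own error. Ccl4, its close relative, had a narrower range, with 4.89, 6.20 and 5.19 untreated and 4.53, 4.66 and 4.83 with prednisolone. Those groups did not overlap, and the log2 difference was -0.75 ± 0.28 (SE, n = 3 and 3; limma, adjusted p = 0.149).

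Ccl6 followed Ccl9, its neighbour on chromosome 11. It read 11.69, 13.43 and 13.02 in the untreated arrays and 11.15, 11.00 and 11.66 with prednisolone. The groups were only just separate, since untreated array 1 barely exceeded prednisolone array 3. The log2 difference of -1.44 ± 0.41 (SE, n = 3 and 3; limma, adjusted p = 0.0635) missed the threshold. Ccl24, the other eotaxin, differed from Ccl11. It read 6.43, 7.17 and 7.47 untreated and 6.47, 6.62 and 6.68 with prednisolone, with untreated array 1 below every prednisolone mouse and a log2 difference of -0.44 ± 0.30 (SE, n = 3 and 3; limma, adjusted p = 0.441).

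Counted over the ligands, the prednisolone means of all 10 were below the untreated means. The median difference was -1.40, beside -0.01 over all tested clusters. At the study's own criterion of a fold of 2, taken without a test, 7 of the 10 were lower, against 1.17% of all clusters. That count includes Ccl2 and Ccl3, whose unadjusted p in limma's test was 0.127 and 0.244. The ligands varied more within groups than most clusters and some varied together, as given below. They therefore pass a fold of 2 more easily and are not 10 separate observations. An unadjusted p under 0.05 was reached in this direction by 7 ligands and by 10.8% of all clusters. In 6 ligands (Ccl4, Ccl5, Ccl6, Ccl8, Ccl9 and Ccl11) every prednisolone array lay below every untreated array, which held for 13.3% of all clusters.

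**Figure D2:**
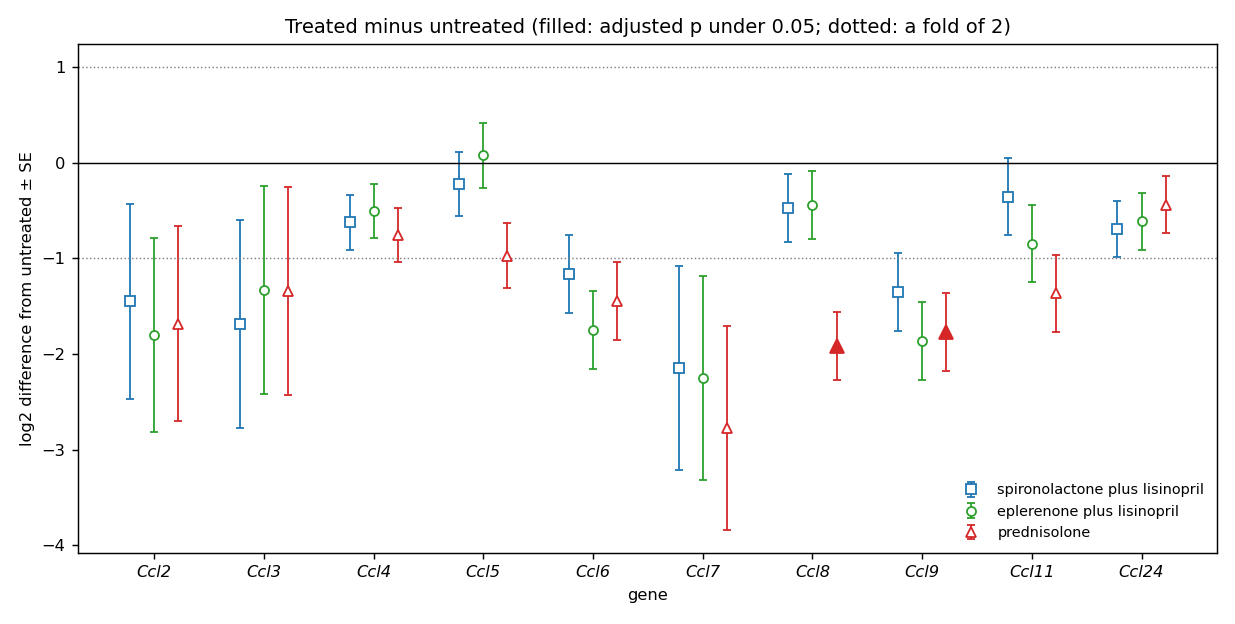
Log2 difference from the untreated mean (vertical axis, ± SE, n = 3 per group) for the 10 ligands in the spironolactone combination, the eplerenone combination and prednisolone; filled symbols passed an adjusted p of 0.05. Ccl8 at -1.92 and Ccl9 at -1.77 with prednisolone are the filled points, and the error bars of Ccl2, Ccl3 and Ccl7 exceed a log2 unit.

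No ligand passed in the spironolactone combination against untreated mice, where 0.0625% of all clusters were lower under the rule, or in the eplerenone combination, where 0.0230% were. By unadjusted p under 0.05 in limma's test, 4 ligands were lower with the spironolactone combination (9.84% of all clusters) and 2 with the eplerenone combination (7.33%). These comparisons and that of prednisolone share the untreated arrays, so their values are set side by side without a test of likeness. The median difference of the 10 ligands was -0.93 with the spironolactone combination and -1.09 with the eplerenone combination. At a fold of 2 without a test, 5 ligands were lower with each combination, beside 0.572% and 0.483% of all clusters, with the same limits as for prednisolone. Every eplerenone array lay below every untreated array for 3 ligands (Ccl6, Ccl8 and Ccl9; 9.23% of all clusters), and the spironolactone arrays did so for none (13.1%).

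The myeloid ligands read low in both combinations. Ccl9 gave 12.26, 12.91 and 12.06 with the spironolactone combination and 11.72, 11.47 and 12.52 with the eplerenone combination. All eplerenone mice were below all untreated mice, while spironolactone array 2 reached above untreated array 1. The log2 differences from untreated were -1.35 ± 0.41 and -1.87 ± 0.41 (SE, n = 3 per group; limma, adjusted p = 0.192 and 0.150). Ccl6 gave 11.08, 12.10 and 11.48, and 10.75, 10.75 and 11.40, in the same order, with differences of -1.16 and -1.75 (SE 0.41; limma, adjusted p = 0.231 and 0.168). Its eplerenone mice were likewise all below the untreated mice. Without untreated array 1, Ccl6 and Ccl9 passed in both combinations.

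Ccl2 spread as widely among the spironolactone mice as among the untreated (ranges of 3.54 and 3.56), and Ccl7 less widely (2.83 and 4.57). Ccl2 read 9.58, 10.91 and 7.37 with the spironolactone combination and 8.99, 8.01 and 9.81 with the eplerenone combination. Ccl7 read 9.31, 10.41 and 7.58, and 8.87, 8.13 and 9.99. Spironolactone array 2 was high and array 3 low for both genes, and array 3 was the lowest of all 12 for each. Differences from untreated were -1.45 and -1.80 for Ccl2 and -2.14 and -2.25 for Ccl7, with SEs of 1.02 and 1.07, and no limma adjusted p of these was under 0.342. Ccl3 stayed between 6.79 and 8.62 with the spironolactone combination and between 7.82 and 9.06 with the eplerenone combination. Its differences were -1.69 and -1.33 with an SE of 1.09, and neither passed.

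The means of Ccl8, Ccl11 and Ccl5 lay nearer to the untreated mean in the combinations than with prednisolone, although the direct tests given further on did not pass. Ccl8 measured 10.97, 10.49 and 11.71 with the spironolactone combination and 10.54, 11.29 and 11.45 with the eplerenone combination. Spironolactone array 3 exceeded every untreated array, the other 5 combination mice lay below the untreated mice, and all 6 lay above all prednisolone mice. The differences from untreated were -0.47 ± 0.35 and -0.44 ± 0.35 (SE, n = 3 per group; limma, adjusted p = 0.514 and 0.610). For Ccl11 the spironolactone mice gave 11.77, 12.43 and 13.32 and the eplerenone mice 11.72, 12.56 and 11.76. All were above the prednisolone mice, and 3 of the 6 lay below untreated array 2, the lowest untreated value. The differences from untreated were -0.35 and -0.84 (SE 0.40; limma, adjusted p = 0.676 and 0.397).

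Ccl5 gave 6.71, 7.05 and 8.09 with the spironolactone combination and 7.96, 7.79 and 7.01 with the eplerenone combination. Its eplerenone mean was the single ligand mean above the untreated mean in any treatment, by 0.08 ± 0.34 (SE, n = 3 and 3; limma, adjusted p = 0.944). Ccl4 ranged from 4.63 to 4.95 and from 4.55 to 5.14 in the combinations, and Ccl24 from 5.94 to 6.99 and from 6.12 to 6.59. For these 2 genes no difference from untreated exceeded 0.69 in size, and the smallest limma adjusted p was 0.286.

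Direct comparisons asked whether a combination and prednisolone differed. No ligand passed: 0.450% of all clusters were higher in the spironolactone combination than with prednisolone, and 0.375% were higher in the eplerenone combination. At an unadjusted p under 0.05, 3 ligands differed from prednisolone in the spironolactone combination and 2 in the eplerenone combination, beside 16.3% and 12.5% of all clusters. Ccl8 came nearest to the threshold, higher by 1.44 ± 0.35 with the spironolactone combination (SE, n = 3 and 3; limma, adjusted p = 0.0847) and by 1.47 ± 0.35 with the eplerenone combination (adjusted p = 0.107). Its 95% intervals were 0.66 to 2.22 and 0.69 to 2.26. Ccl5 was 0.74 ± 0.34 and 1.05 ± 0.34 higher (limma, adjusted p = 0.303 and 0.214), and Ccl11 was 1.01 ± 0.40 and 0.52 ± 0.40 higher (adjusted p = 0.251 and 0.681). In each of these genes the combination arrays all lay above the prednisolone arrays, as 10.2% of all clusters did for spironolactone and 9.96% for eplerenone. The other 7 ligands differed from prednisolone by 0.63 or less in size in either combination.

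Spironolactone and eplerenone, steroidal blockers of the same receptor, were given at different doses, so the combinations are set side by side. Differences between them ran from -0.36 (Ccl3) to 0.59 (Ccl6), spironolactone minus eplerenone, and no cluster on the array passed (limma, adjusted p = 0.998 for each ligand). The precision differed by gene. The 95% interval was -0.81 to 0.75 for Ccl8 and -0.39 to 1.41 for Ccl9, but -2.24 to 2.45 for Ccl7 and -2.75 to 2.04 for Ccl3, so a fold of 2 in either direction lay inside the intervals of Ccl7 and Ccl3. Over all 4 groups, limma's F-test called 1.93% of all clusters and none of the ligands. Its smallest adjusted p-values were 0.0545 for Ccl8 and 0.0771 for Ccl9, and at an unadjusted p under 0.05 it marked 5 ligands, beside 19.6% of all clusters.

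The order of the group means followed from this. Untreated mice had the highest mean for 9 ligands, all but Ccl5. Prednisolone had the lowest mean for Ccl4, Ccl5, Ccl7, Ccl8 and Ccl11, the eplerenone combination for Ccl2, Ccl6 and Ccl9, and the spironolactone combination for Ccl3 and Ccl24. The step from untreated to the next mean exceeded the pooled SD of the arrays for Ccl4, Ccl6, Ccl7, Ccl9 and Ccl24, and was smaller than it for Ccl2, Ccl3, Ccl8 and Ccl11. Neighbours among the treated groups differed by less than the pooled SD except at the steps down to prednisolone of 0.74 for Ccl5 (pooled SD 0.47) and 1.44 for Ccl8 (pooled SD 0.50).

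The size of most differences depended on which untreated mice they were measured from. Of the 12 arrays, untreated array 2 held the highest value of 5 ligands and untreated array 3 of 3, whereas untreated array 1 was never among the top 2. For Ccl2, Ccl3, Ccl4, Ccl6, Ccl7, Ccl9 and Ccl24 none of the 9 treated arrays exceeded untreated array 2 or 3. Untreated array 1 was exceeded by 7 treated arrays for Ccl2, 8 for Ccl3, 6 for Ccl7 and 6 for Ccl24. Measured from untreated array 1 alone, the prednisolone mean was higher by 0.64 for Ccl2, by 1.29 for Ccl3 and by 0.15 for Ccl24. Ccl8 was the exception among the ligands, at -1.88, -1.91 and -1.96 from untreated arrays 1, 2 and 3. For Ccl9 the same differences were -0.85, -2.39 and -2.07, all in 1 direction but unequal in size.

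**Figure D3:**
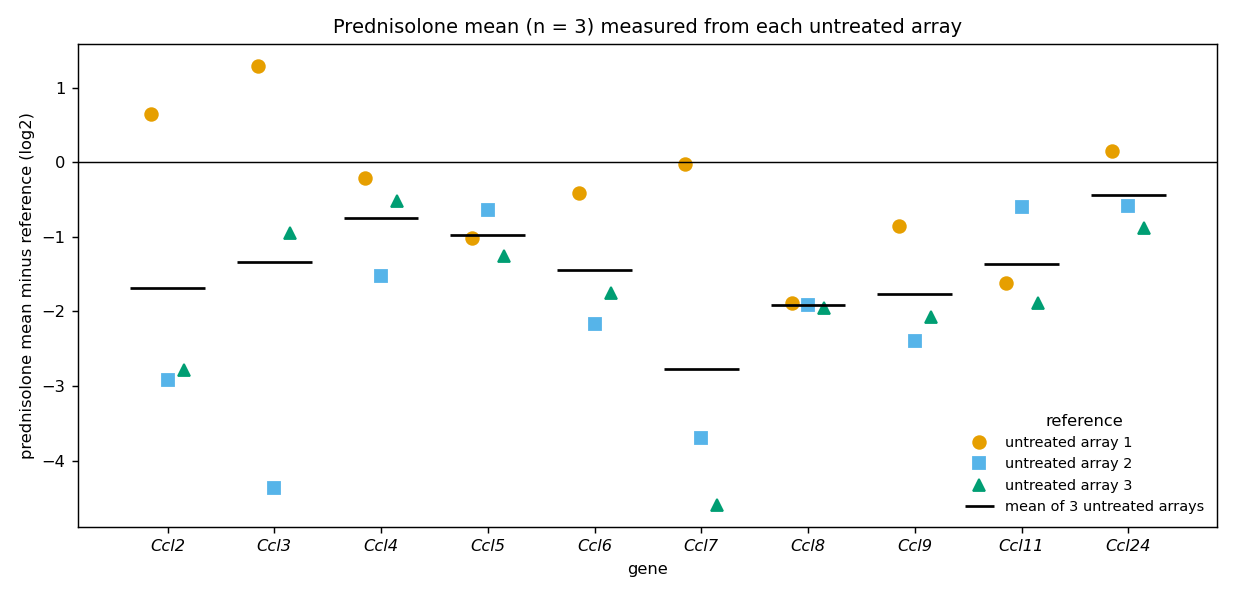
Mean of the 3 prednisolone arrays minus each single untreated array (symbols) and minus the untreated mean (bars), in log2 units on the vertical axis, for the 10 ligands. The 3 symbols of Ccl8 coincide near -1.9, while those of Ccl3 run from 1.29 above untreated array 1 to -4.37 from untreated array 2.

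With untreated array 1 left out, 5 ligands passed with prednisolone (Ccl4, Ccl6, Ccl7, Ccl8 and Ccl9) and 2 in each combination (Ccl6 and Ccl9). With untreated array 3 left out, 1 passed with prednisolone. With prednisolone array 1 or 2 left out, none did. Ccl11 passed in place of Ccl9 when untreated array 2 was left out (limma, adjusted p = 0.0427 for Ccl11). Without untreated array 1, the inducers described below also gave more calls, 11 with prednisolone, 7 with spironolactone and 6 with eplerenone. How many of all clusters passed was not recorded for fits with 1 array left out. Such counts therefore have no share beside them and are no result about the ligands alone.

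Beyond group means, the ligands are among the most variable genes of this data set within groups. The pooled SD within groups was 1.55 for Ccl3, 1.52 for Ccl7 and 1.46 for Ccl2, against a median of 0.16 over all tested clusters. The SD of Ccl3 exceeded that of 99.97% of all clusters, and even the smallest of the 10, that of Ccl4, exceeded 95.5% of them. Accordingly, the SE of a difference was 1.02 to 1.09 for Ccl2, Ccl7 and Ccl3 but 0.28 for Ccl4.

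Some ligands varied together from array to array. Over the 12 arrays Ccl6 and Ccl9 correlated at r = 0.97 (rho 0.93) and Ccl2 and Ccl7 at r = 0.96 (rho 0.96). After group means were removed, r was 0.93 and 0.97 for these pairs. Both are pairs of chromosomal neighbours, but neighbours did not all move alike: Ccl2 and Ccl8 correlated at 0.17 and Ccl7 and Ccl11 at 0.22, although they lie in the same cluster of genes, and within groups these values were -0.21 and -0.36. Ccl8 and Ccl11 correlated at 0.72 (0.42 within groups) and Ccl5 and Ccl11 at 0.74 (0.75 within groups), whereas Ccl3 and Ccl5 gave -0.22 (-0.55 within groups). The points are arrays of 4 groups that share tissue and processing, and the values are descriptions without a test. The probes' sequences were not used here, so signal shared between these related genes was not tested.

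**Figure D4:**
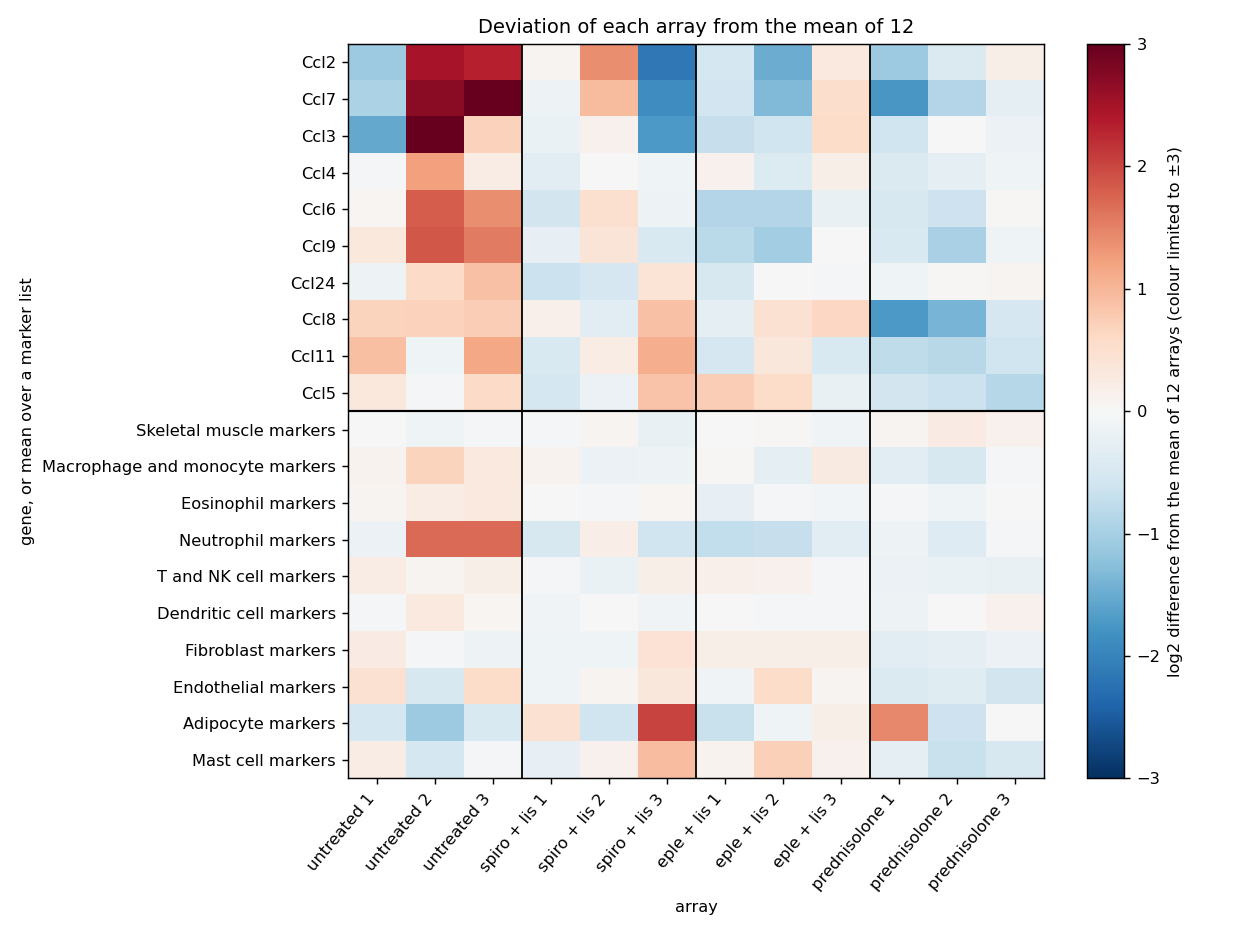
Deviation of each array from its gene's mean over 12 arrays (colour, log2, limited to 3 in either direction), for the 10 ligands (upper rows) and for means over marker lists of cell types (lower rows); columns are the arrays by group. Ccl2, Ccl7, Ccl3, Ccl6 and Ccl9 are high in untreated arrays 2 and 3, as is the neutrophil row, and Ccl8, Ccl11 and Ccl5 are low in the prednisolone columns.

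Genes with the most similar levels over the 12 arrays were found among 19568 candidates by Pearson's r, and r was taken again without the pair of arrays farthest from the ligand's median. Those of the monocyte ligand Ccl2 were Ddx31 (0.95), the macrophage scavenger receptor Msr1 (0.94) and Niban2 (0.94), with 0.89, 0.92 and 0.85 without that pair. Ccl7 was nearest to the hyaluronan receptor Cd44 (0.97), Nup210l (0.96) and the metalloproteinase inhibitor Timp1 (0.95), and these became 0.90, 0.82 and 0.88. Tnf, an inflammatory cytokine, came first for Ccl3 (0.98), then Nsf (0.95) and Galnt6 (0.94), and without the pair r was 0.90, 0.69 and 0.81. Ccl4 had Snx20 (0.95), Napsa (0.95) and Cnpy3 (0.94), with 0.84, 0.81 and 0.77 without the pair.

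Ccl9 was nearest to the kinase Syk (0.98), Nufip1 (0.97) and Tes (0.96), and Ccl6 to Krt80 (0.97), Gda (0.96) and S100a8 (0.96), which neutrophils carry in abundance. Without untreated arrays 2 and 3, the farthest pair, these values were 0.94, 0.88 and 0.85 for Ccl9 and 0.93, 0.87 and 0.78 for Ccl6. Ccl8 had other neighbours, Gnai2 (0.93), Prcp (0.93) and Sri (0.92), with values of 0.73, 0.77 and 0.89 without prednisolone arrays 1 and 2. Ccl11 was nearest to Arap2 (0.96), Usp42 (0.92) and Dcun1d3 (0.92), Ccl5 to Tspan2 (0.94), the RNA sensor Tlr3 (0.93) and Jazf1 (0.92), and Ccl24 to Rnu1b2 (0.91), Eps8l1 (0.90) and Kcnd3 (0.89). Without the farthest pair these were 0.92, 0.90 and 0.91 for Ccl11, 0.91, 0.93 and 0.88 for Ccl5, and 0.79, 0.83 and 0.80 for Ccl24.

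The receptors of these ligands showed few differences. Of 14 receptor genes, 12 were measured, and 1 was lower with prednisolone (3.17% of all clusters) and none with either combination (0.0625% and 0.0230%). In the limma test at an unadjusted p under 0.05, 4 receptors were lower in each treatment. The shares of all clusters were 10.8% with prednisolone, 9.84% with the spironolactone and 7.33% with the eplerenone combination. The receptor that passed with prednisolone was Ccr3, the eotaxin receptor of eosinophils, which binds Ccl11 and Ccl24. It read 5.98, 6.17 and 6.80 untreated and 5.51, 4.96 and 5.31 with prednisolone, without overlap, and fell by 1.05 ± 0.27 (SE, n = 3 and 3; limma, adjusted p = 0.0435). This call was lost without untreated array 2, spironolactone array 1 or 2, eplerenone array 2 or any 1 prednisolone array. Ccr1, which binds Ccl3, Ccl6 and Ccl9 among others, split the untreated mice as its ligands did, at 6.52, 10.41 and 9.77, and lay between 6.36 and 8.01 in the treated mice. Its differences of -1.82, -1.72 and -2.18 for prednisolone, the spironolactone and the eplerenone combination had an SE of 0.81 and did not pass. Ccr2, the monocyte receptor for Ccl2 and Ccl7, differed by -0.60, -0.11 and -0.42 (SE 0.46), and the scavenging receptor Ackr1 by -0.13, -0.30 and -0.35 (SE 0.18), none past the threshold.

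Among 9 measured ligands of the family outside the 10, Ccl28, a mucosal chemokine, rose by 0.67 ± 0.16 with prednisolone (SE, n = 3 and 3; limma, adjusted p = 0.0313), where 3.22% of all clusters were higher. No gene of this list passed with prednisolone without untreated array 2 or 3 or without prednisolone array 2 or 3. The mouse monocyte chemokine Ccl12, which lies between Ccl11 and Ccl8 in the gene order, split the untreated mice as Ccl2 did, at 6.63, 10.10 and 10.27. Its prednisolone values were 6.39, 7.09 and 6.88 and its difference of -2.21 ± 0.74 did not pass (SE, n = 3 and 3; limma, adjusted p = 0.106).

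Cytokines and transcription regulators known to control CC ligand genes were lower with prednisolone in many cases. Of 19 measured, 9 were lower with prednisolone, 2 with the spironolactone combination and none with the eplerenone combination, beside 3.17%, 0.0625% and 0.0230% of all clusters. At an unadjusted p under 0.05 in limma's test, 12 were lower in the eplerenone combination (7.33% of all clusters), and no gene of the list passed as higher. The cytokines Il1b and Il6 fell with prednisolone, with log2 differences of -4.75 ± 0.95 and -2.18 ± 0.27 (SE, n = 3 and 3; limma, adjusted p = 0.0171 and 0.00320). Il1b differed by -4.05 and -4.54 in the spironolactone and eplerenone combinations and did not pass there. With prednisolone Nfkbia, the inhibitor that NF-kB itself induces, differed by -2.25 ± 0.23 (adjusted p = 0.00166), Zfp36, which speeds the decay of chemokine messengers, by -2.35 ± 0.33 (0.00401), and the factor Cebpd by -3.10 ± 0.41 (0.00363). In each combination, too, every array of Nfkbia and Cebpd lay below every untreated array, as held for 13.1% and 9.23% of all clusters. Myd88, Rela, Irf1 and Cebpb fell with prednisolone too, with differences of -1.06, -0.63, -0.79 and -0.76. Il6 and Zfp36 also fell with the spironolactone combination, with differences of -2.09 ± 0.27 and -2.16 ± 0.33 (limma, adjusted p = 0.0280 and 0.0482). Tnf, the gene most like Ccl3 over the arrays, differed by -0.43, -0.61 and -0.56 and did not pass. Single arrays moved these counts. Without prednisolone array 2, 4 genes of the list passed with prednisolone. In the spironolactone combination 7 passed without untreated array 1, 4 without spironolactone array 3 and 1 or none without any other array, and in the eplerenone combination 6 passed without untreated array 1 and 2 without spironolactone array 3.

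**Figure D5:**
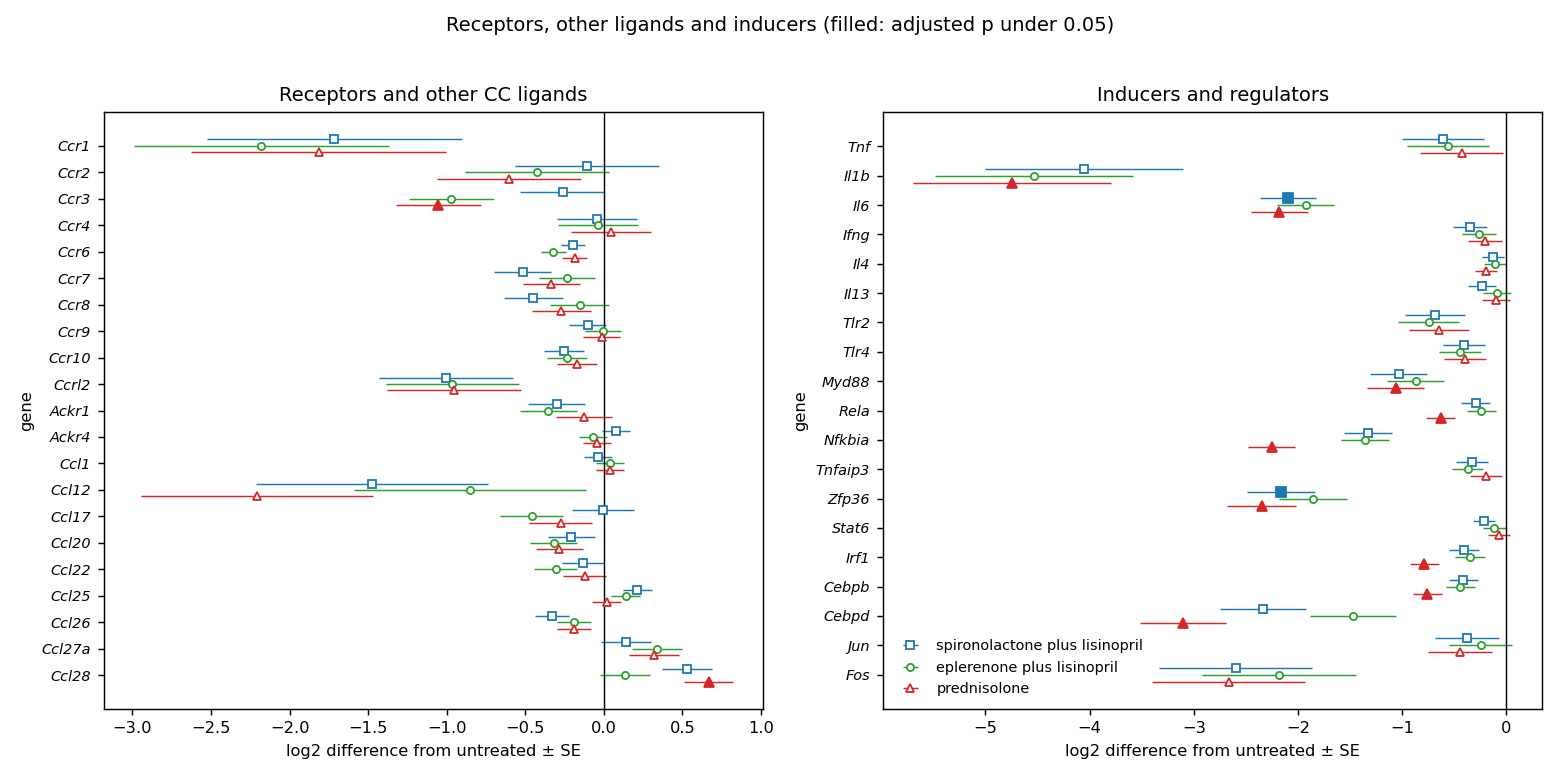
Log2 difference from the untreated mean (horizontal axis, ± SE, n = 3 per group) for receptors and other CC ligands (left) and for inducers and regulators (right) in the 3 treatments; filled symbols passed an adjusted p of 0.05. Il1b at -4.75, Cebpd at -3.10 and Ccr3 at -1.05 are among the filled prednisolone points, and Ccr1 lies left of 0 in all 3 treatments with open symbols.

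Marker lists of the cells that make or follow these ligands moved with some of them. The mean over 10 neutrophil markers was 8.21 and 8.23 in untreated arrays 2 and 3 and 6.35 in untreated array 1. It was 5.78 to 6.73 in the treated arrays, the same split as Ccl2, Ccl7, Ccl6 and Ccl9. The single markers did not all split this way. S100a8 read 7.14, 12.93 and 12.03 in untreated arrays 1, 2 and 3, and Camp 5.61, 5.44 and 5.58. Array 1 was the lowest of these for S100a8, S100a9, Csf3r, Cxcr2, Retnlg, Mmp8 and Mmp9, but not for Camp, Ly6g and Ngp. Mmp9, Camp and Ngp differed upward with prednisolone, by 0.83, 0.33 and 0.015, and did not pass. With prednisolone 1 of the 10 markers was lower, and for this and the counts of markers that follow the share over all clusters was 3.17%. The 14 macrophage and monocyte markers had means of 12.26 to 12.84 untreated, 11.99 to 12.27 and 11.88 to 12.43 in the spironolactone and eplerenone combinations and 11.68 to 12.10 with prednisolone, where 4 of the 14 were lower. Those 4 were Mrc1, C1qb, Fcgr1 and Ly6c2, while Cx3cr1 and Cd163 differed upward by 0.67 and 0.07 and did not pass. The 11 measured T and NK cell markers had means of 5.65 to 5.79 untreated and 5.35 to 5.41 with prednisolone, and 1 of them was lower. Ccl5 values were lower there too. However, these marker means lay within or below the range of array medians over the tested clusters, 5.70 to 5.81, so their signal was dim.

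Of the remaining lists, endothelial markers had means of 10.16 to 11.17 untreated and 10.09 to 10.27 with prednisolone, with 1 of 6 lower, and untreated array 2 was the low one as it was for Ccl11. The lower marker was Cdh5, while Kdr and Tek differed upward by 0.06 and 0.03. Fibroblast markers had means of 13.46 to 13.86 untreated and 13.29 to 13.42 with prednisolone, with 2 of 6 lower, the collagens Col1a1 and Col3a1. Dcn, Pi16 and Dpp4 differed upward by 0.04, 0.13 and 0.09. None of these upward differences passed. The 6 measured eosinophil markers had means of 5.00 to 5.22 untreated and 4.81 to 4.91 with prednisolone, with 2 lower, Ccr3 and Il5ra. These eosinophil means lay below the array medians of 5.70 to 5.81 over the tested clusters, so the signal was dim. Prg2 and Epx differed upward by 0.12 and 0.15, Siglecf and Ear6 by -0.27 and -0.04, and none of these passed. No marker of any list passed in either combination. The adipocyte mean was highest in spironolactone array 3 (11.40) and prednisolone array 1 (10.82), the arrays with the highest and the lowest Ccl8. The part of these cell types in the ligand values was not tested.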

How the data were processed

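Each mouse's quadriceps RNA was amplified and hybridised to its own single-channel Affymetrix array, per the labels' protocols. The authors made the deposited log2 signals with RMA in Affymetrix Expression Console, then used Transcriptome Analysis Console, according to the submitters' processing notes. Program versions and genome build: not given in the sources used here. Values ran from 1.61 to 19.93 over 65587 clusters, beyond the log2 ceiling of 16 of a 16-bit scanner, so a rescaling that the notes leave out was applied, and a fold is a fold on the deposited scale.

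The test covered the 30412 clusters paired with exactly 1 symbol in the platform annotation, and 2118 with several symbols were left out. Using limma 3.58.1 in R 4.3.3, a mean per group was estimated from the 12 arrays together (eBayes without trend, two-sided, 8 residual and 2.94 prior degrees of freedom), with Benjamini-Hochberg adjustment at 0.05. Exact permutation of 3 against 3 arrays gives no p below 0.1. Data were simulated for prednisolone against untreated on 30412 clusters. In them, 95 of 100 changes of 2 log2 units and 85 of 100 of 1 unit were recovered, with 9 false calls. The pooled SD within groups ran from 0.395 (Ccl4) to 1.55 (Ccl3) in the ligands, against a median of 0.16 over all tested clusters. Recovery in clusters as variable as the ligands was not tested separately.

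The members, the lists of receptors, other ligands, inducers and markers, and the tests were chosen with earlier results of these data known. Named were all members, the genes of the receptor, ligand and inducer lists that passed, the receptors Ccr1, Ccr2, Ccr3 and Ackr1, the 3 genes most like each member by Pearson's r, and Ccl12 and Tnf, chosen after their values were seen. Alternatives covered scaling, array weights, dim clusters, the clusters tested, the eBayes settings, the reference arrays, a replicate block, a fold of 2 and leaving out each array.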

Additional observations from a re-analysis of the deposited data

How the results depend on the processing

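With prednisolone, Ccl8 passed in 19 of 24 alternatives and Ccl9 in 18 of 24, and both were lower in all 24. The 2 ligands that passed with prednisolone became 4 with array weights or without dim clusters, both times with Ccl6 and Ccl11 added, 4 against untreated array 2 alone, 0 against untreated array 1 alone, and 0 to 5 when any 1 array was left out. A fit against a single untreated array takes its spread from the other groups and assumes that the lone array varies like them, so such counts describe that array as a reference and are no test of the untreated group. A fold of 2 without a test gave 7 with prednisolone, 5 with each combination and 2 in each combination against prednisolone. In the combinations, untreated array 2 as the sole reference gave 2 ligands each, and leaving out 1 array gave 0 to 2 each. Against prednisolone, array weights gave 1 ligand (Ccl8) in each combination, and leaving out 1 array gave 0 to 1 for spironolactone and 0 for eplerenone. The F-test marked 1 ligand with equal array medians, 2 with array weights, 2 without dim clusters and 0 to 3 with 1 array left out. How many of all clusters passed was not recorded with array weights, without dim clusters or for the F-test in any alternative. Those counts have no share beside them and are no result about the ligands alone.

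No sign was seen that the replicate numbers in the labels pair the mice. Arrays of the same number correlated in their deviations at -0.24 to 0.16 (median 0.02), over 0.1 in 4 of 18 pairs. Arrays of different numbers gave -0.30 to 0.27 (median -0.01), over 0.1 in 12 of 36 pairs. With 3 arrays per group such values cannot exclude a pairing. With the replicate block, 3 ligands passed with prednisolone (Ccl6 added, limma, adjusted p = 0.0445), the F-test marked 1 ligand, 1 inducer passed in each combination, and no other call of a ligand changed.

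Of the other lists with prednisolone, the receptors and the other ligands each had 0 calls in the fit of 2 groups only, over all 65587 clusters and without dim clusters. Ccl28 is itself dim, so leaving out dim clusters removed it, and the 0 of the other ligands there is no retest. Ccr3 lies near the cut for dim clusters, and whether it was kept was not recorded. Receptors had 2 against untreated array 2 or 3 alone and 2 at a fold of 2, the other ligands had 2 with array weights, and both had 0 to 2 with 1 array left out. The inducers had 5 in the fit of 2 groups, 3 against untreated array 1 alone and 4 to 11 with 1 array left out. In the spironolactone combination the inducers had 0 in the fit of 2 groups and against untreated array 1 alone, 1 with equal medians, over all clusters, without dim clusters and with robust eBayes, 6 and 7 against untreated arrays 2 and 3 alone, 7 at a fold of 2, and 0 to 7 with 1 array left out. The eplerenone combination gave 1 with equal medians, array weights and trended eBayes, 6 against untreated array 2 or 3 alone, 6 at a fold of 2, and 0 to 6 with 1 array left out. Receptors gave 1 in either combination against untreated array 2 alone, 1 for eplerenone against untreated array 3 alone, 2 and 1 at a fold of 2, and the other ligands 1 in either combination against untreated array 2 or 3 alone and 1 for spironolactone at a fold of 2. Both lists had 0 to 1 in each combination with 1 array left out.

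Directions turned for differences that had not passed. From untreated array 1 alone, prednisolone was higher for Ccl2 (0.64), Ccl3 (1.29) and Ccl24 (0.15), the spironolactone combination for Ccl2 (0.88), Ccl3 (0.94) and Ccl7 (0.60), and the eplerenone combination for Ccl2 (0.52), Ccl3 (1.30), Ccl4 (0.034) and Ccl7 (0.50). From untreated array 2 alone, the spironolactone combination was higher for Ccl5 (0.0998) and Ccl11 (0.42), and from array 3 alone the eplerenone difference of Ccl5 was -0.21. Array weights turned the latter to -0.0057, and quantile normalization turned the Ccl3 difference of eplerenone from prednisolone to -0.027. With 1 array left out, differences from untreated spanned 0 for Ccl3 with prednisolone (-2.65 to 0.18) and eplerenone (-2.65 to 0.18), Ccl5 with spironolactone (-0.63 to 0.063) and eplerenone (-0.11 to 0.36), and Ccl11 with spironolactone (-0.76 to 0.017). Spironolactone against eplerenone spanned 0 for Ccl2 (-0.46 to 1.31), Ccl3 (-0.72 to 0.20), Ccl7 (-0.55 to 0.86), Ccl8 (-0.36 to 0.25) and Ccl24 (-0.41 to 0.12). Against prednisolone it did so in the spironolactone combination for Ccl2 (-0.58 to 1.19), Ccl3 (-0.71 to 0.20) and Ccl7 (-0.029 to 1.39), and in the eplerenone combination for Ccl2 (-0.55 to 0.34), Ccl3 (-0.40 to 0.23) and Ccl9 (-0.40 to 0.12). The causes were not tested. The choice of a next brightest cluster was not run, since no member has a second cluster, and Ccl4 is among the dim clusters. Signal over background was not used here, so what dim signal limits is unknown.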
